A study of Mus musculus with 4 samples.

Results

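Genes that attach ubiquitin to proteins or take it off again were described in area CA1 of the hippocampus. The 4 samples came from young C57BL/6J males kept as controls. The genes were those whose platform symbol starts with Ube2, Ube3, Uba and a digit, Usp and a digit, Uchl, Rnf or Siah, with Usp2 left out. The rule used names only and took 89 of 8251 named genes, measured by 120 of the 10833 probe sets that carry 1 symbol. A probe set is a group of short probes for one transcript, and where a gene had several, the one with the highest mean log2 signal stood for it. The members comprise 3 activating enzymes (E1), 21 conjugating enzymes and their relatives (E2), 1 HECT ligase, 36 genes of the RING finger families Rnf and Siah, and 28 deubiquitinases.

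Total RNA of each sample was hybridised to 1 Affymetrix mouse array. Every sample was a control: an experimenter handled the mice, and they got no treatment beyond that. Their RNA was extracted 1, 2, 4 and 6 h after the last shock of treated mice, which are not analysed here, each hour being 1 sample. The labels do not say whether RNA of several mice was pooled. With 1 array per hour, a difference between 2 hours has no replicate check, and an SD over the 4 arrays holds hour, animals and array together.

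Ubiquitin is a small protein that is activated by an E1, handed to an E2 and placed on a substrate with the help of a ligase. HECT ligases carry the ubiquitin themselves, while RING ligases bring the charged E2 to the substrate. Chains of ubiquitin send proteins to the proteasome or change their traffic and activity, and deubiquitinases of the Usp and Uchl families trim or remove them. In hippocampal neurons this traffic sets the turnover of synaptic proteins and receptors. Some members serve relatives of ubiquitin: Uba3 and Ube2f act on NEDD8, and Uba7, Ube2l6 and Usp18 on the interferon-induced modifier ISG15.

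Signals are the authors' scaled intensities, one per probe set and array. A signal can be compared between arrays for one probe set but not between probe sets, since these bind with different strength. Values under a floor of 36.8, the pooled 20th percentile, were set to it before log2 was taken, and differences are on that floored log2 scale. A mean log2 signal at or over the pooled 40th percentile, a signal of 116.4, was reached by 77 of the 89 genes, and counts refer to these. The member just over it was Ube2e3, an E2, with signals of 133, 134, 134 and 102 at 1, 2, 4 and 6 h. Just under it lay Ube2l6, with 175, 64.5, 173 and 64.2.

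The 2 h array stood apart from the rest. Probe sets for the 3' and 5' ends of a transcript show how evenly it was labelled. For Gapdh, 3' exceeded 5' by 1.08-fold on it and 3.62-fold to 4.10-fold on the other arrays, and for beta-actin by 1.72-fold against 2.27-fold to 2.93-fold. Of 8 CA1 pyramidal markers, 4 are on the array and 3 passed the filter, among them Wfs1 with signals of 2293, 1877, 2484 and 2508, while Camk2a did not pass, with 41, 351, 195 and 43.3. Of 11 marker lists, the signal summed over the measured markers was highest at 2 h for 5 (neuron, astrocyte, microglia, CA3 and choroid plexus) and lowest at 2 h for 5 (CA1, interneuron, oligodendrocyte, endothelium and dentate granule). The neuron list gave 28823 at 2 h against 23610.4 to 25439 on the other arrays, and the CA1 list gave 6976 at 2 h against 8430.0 to 9791. The CA3 list (2 of 3 measured) gave 7549 at 2 h against 1692 to 2015, and the choroid plexus list (4 of 4) 1857 against 662 to 1141. Of the choroid plexus genes, Ttr and Igfbp2 were highest at 2 h, while Kl was lowest there and Folr1 was highest at 6 h. Most of the CA3 sum at 2 h was Nnat, with 6529 at 2 h against 931 to 1179.9. Other lists were mixed too. Of the astrocyte genes, Aldoc and Aqp4 were highest at 2 h, Gfap and Gja1 lowest. Of the microglia genes, C1qa, C1qb and Cx3cr1 were highest at 2 h, Csf1r and Ctss lowest, and the sum was 6435 against 6419 at 1 h. In the neuron list Snap25 was lowest at 2 h and the others highest. In the oligodendrocyte list Mobp was lowest at 2 h and the others highest. Of the interneuron genes, Sst and Slc32a1 were lowest at 2 h, Gad1 and Pvalb at 4 h and Gad2 at 1 h. Of the endothelium genes, Cldn5 and Tek were lowest at 2 h, Pecam1 and Flt1 at 6 h. No marker was at 0. In such bulk samples, fewer cells of a type and less RNA per cell cannot be told apart.

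Most members varied little between the control arrays. The median SD of log2 signal over the 4 arrays was 0.29 over the 77 genes, against 0.28 over all 7237 tested probe sets and 0.27 over the brightest probe sets of 5546 genes. Within a 2-fold range stayed 62 members, or 80.5%, against a background of 77.4% of tested probe sets. Within a 1.5-fold range stayed 33 members, or 42.9%, against 46.4%, and 2 members ranged over at least 4-fold, against 4.56% of tested probe sets. These shares are near the background. A single array lay apart from 3 close ones, past Dixon's 95% critical value, in 7 members or 9.09%, against 6.44%. By class, the median SD was 0.28 for 18 conjugating enzymes, 0.24 for 34 RING family genes and 0.29 for 22 deubiquitinases.

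**Figure D1:**
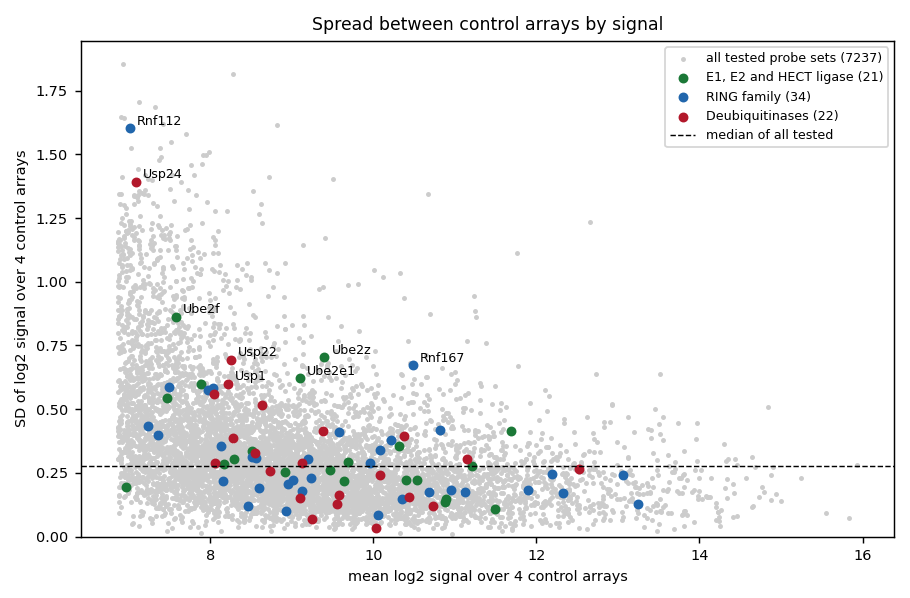
SD of log2 signal over the 4 control arrays (vertical axis) against mean log2 signal (horizontal axis) for 77 ubiquitin-system genes, coloured by class, and for all 7237 tested probe sets (grey); the 8 members with the largest SD are named. Members lie among the other probe sets, and the 2 with the widest spread, Rnf112 (SD 1.6) and Usp24 (1.39), are dim.

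The activating enzymes were represented by Uba3, Uba7 and Uba1y. Uba3, the catalytic subunit of the NEDD8 activating enzyme, had signals of 548, 497, 373 and 530.3 at 1, 2, 4 and 6 h, the 4 h array being the lowest. Uba7, which activates ISG15, had 137, 293, 216 and 356. It was lowest at 1 h, and the 2 h and 6 h values were 2.13 and 2.59 times the 1 h value. Uba1y, the Y-linked copy of the ubiquitin E1 known from mouse testis, had 12.7, 65.3, 43.8 and 53.4, too dim to test, and its second probe set had 11.8, 68.4, 12.3 and 31.3.

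Several conjugating enzymes gave strong signals within a 2-fold range. Ube2v1, an E2 relative without a catalytic cysteine, had 3132, 2856, 2608 and 2906, a range of 1.2-fold. Its catalytic partner Ube2n, which builds chains used in signalling and repair, had 2159, 1850.1, 1755 and 1789.5. Both were highest at 1 h and lowest at 4 h. Ube2b, a Rad6-type enzyme, had 2281, 1896, 3019 and 2403, and its close relative Ube2a had 849.6, 551, 712 and 751. On both of these the 2 h array was the lowest. Ube2r2, which serves cullin ligases, had 3496, 2178, 4237 and 3664, again with 2 h lowest. Ube2g1 had 1397, 1126, 1622 and 1289.6, within a range of 1.44-fold. The general E2 genes Ube2d3 and Ube2d2a had 1796, 1712, 1915 and 2173 for Ube2d3 and 1429, 883, 1529 and 1344 for Ube2d2a. Ube2d3 ranged over 1.27-fold, while Ube2d2a was lower at 2 h than on each other array.

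Ube2f, Ube2e1, Ube2c and Ube2z ranged over more than 2-fold. Ube2f, an E2 for NEDD8, had 77.9, 262, 251 and 259, so that the 2, 4 and 6 h arrays lay close together, at 3.37, 3.22 and 3.33 times the 1 h value. Ube2e1 had 908, 318, 542 and 580.0, highest at 1 h and lowest at 2 h, where it was 0.35 times the 1 h signal. Its probe set name marks probes shared between transcripts. Ube2c, which works with the anaphase-promoting complex in mitosis, had 106, 259.5, 204 and 174, lowest at 1 h. The only probe set of Ube2c has a name ending that marks shared or incomplete probes. Ube2s, the partner of Ube2c in chain extension, had 276, 397, 251 and 350.5 and no such dip at 1 h. Ube2z, an E2 charged by a separate E1, had 619.9, 1212, 739 and 372, highest at 2 h and lowest at 6 h, with a 3.26-fold range. Ube2k had 965, 820.0, 753 and 674, Ube2o, an E2 that also acts as a ligase, 1527, 1634, 1640.0 and 1181, and Ube2v2, a second catalytically inactive relative, 325, 293, 215 and 329. These last 3 stayed within 2-fold.

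Ube3a, the HECT ligase expressed from the maternal allele in neurons and lost in Angelman syndrome, had signals of 377, 285, 331 and 495, a mean of 372 ± 90.1 (SD, n = 4). It was highest at 6 h and lowest at 2 h, within a 1.74-fold range.

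**Figure D2:**
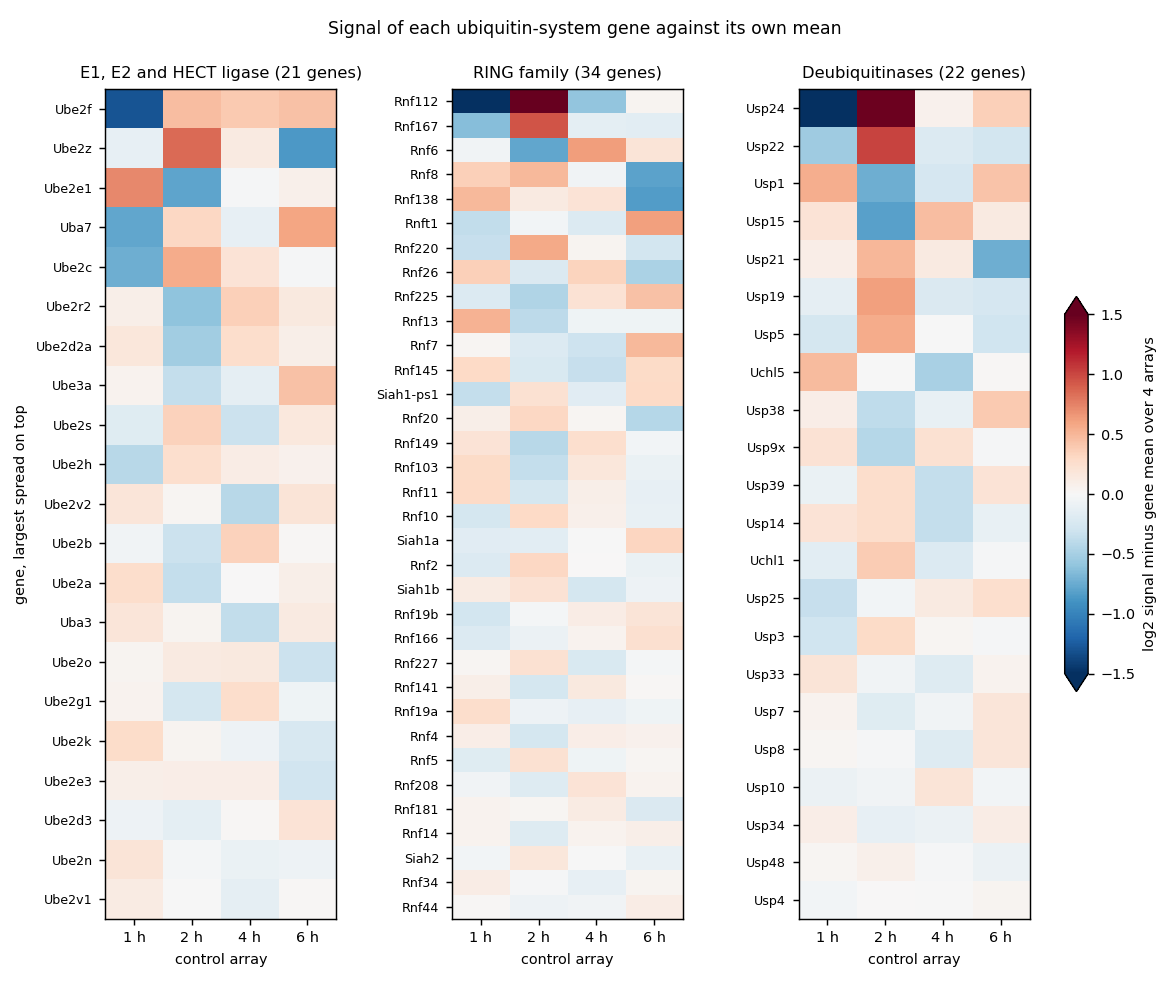
Log2 signal minus the gene's own mean over the 4 control arrays (colour, clipped at 1.5 either way) for the 77 genes over the filter, in 3 panels by class, with the 1, 2, 4 and 6 h arrays from left to right and the largest spread on top. Most cells are pale, and the strongest colours are in the 1 h and 2 h columns of Rnf112 and Usp24.

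Several genes of the RING family gave strong signals. Rnf14, a ligase that also binds the androgen receptor, had 10064, 8530.5, 10081 and 10333, a mean of 9752 ± 824 (SD, n = 4). Rnf10, a RING protein that can travel from synapses to the nucleus, had 7149, 10519, 9039.6 and 7960.3, highest at 2 h. Rnf11, a partner of NEDD4-type ligases, had 5719.9, 3872, 4976 and 4291, and Rnf208 had 4943, 4477, 5915 and 5308. Both were lowest at 2 h. Rnf141 had 4065, 3185, 4234 and 3858, and Rnf4, which recognises SUMO chains, had 2386, 1860.4, 2390.3 and 2328, also with 2 h lowest.

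Further RING genes stayed within a 2-fold range. Rnf44 had 1077, 1009, 1028 and 1153 and Rnf34 523, 479, 444 and 498, with SDs of 0.09 and 0.10 on the log2 scale. Siah2, whose family tags substrates such as prolyl hydroxylases, had 344, 396, 351 and 326, and its relatives had 537, 543, 604 and 758 for Siah1a and 309, 331, 236 and 269 for Siah1b. Siah1a was highest at 6 h and the other 2 at 2 h, and none ranged over 2-fold. A probe set annotated to the pseudogene Siah1-ps1 gave 285, 428, 324 and 448; how far it also detects its parent genes was not tested. The chromatin ligases Rnf2 and Rnf20, which modify histones, had 448, 639.7, 519.9 and 481 for Rnf2 and 400.3, 466, 384 and 279.8 for Rnf20. Rnf5, of the endoplasmic reticulum membrane, had 1451, 1929, 1573 and 1682, and Rnf7, a RING subunit of cullin ligases, 286, 243, 226 and 393. All 4 stayed within 2-fold.

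The RING genes over the filter with the widest spread were Rnf112 and Rnf167. Rnf112, a brain-enriched RING protein with a GTPase domain, had signals of 42, 582, 85.5 and 133, a mean of 211 ± 250.4 (SD, n = 4). Its 2 h signal was 13.9 times the 1 h signal, which lies near the floor; the log2 difference was 3.79, and 3.06 with a floor at the pooled 30th percentile. Rnf167, a membrane ligase of endosomes and lysosomes, had 919, 2759, 1291 and 1282 and was 3 times as high at 2 h as at 1 h. Both genes have 1 probe set only. Rnf220 had 1429, 2693, 1865 and 1495, highest at 2 h but within 2-fold. Rnf8 and Rnf138, ligases of the DNA damage response, had 336, 367, 252 and 150.0 for Rnf8 and 353, 276, 291 and 141 for Rnf138, with the 6 h array the lowest on both. At 6 h they were 0.446 and 0.4 times the 1 h value. Rnf6 had 174, 105, 277 and 205, lowest at 2 h, and Rnft1 117, 147, 130.1 and 231, highest at 6 h. The remaining RING genes (Rnf103, Rnf145, Rnf149, Rnf166, Rnf181, Rnf19a, Rnf19b, Rnf225, Rnf227 and Rnf26) had ranges of 1.27-fold for Rnf181 to 1.84-fold for Rnf225.

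Among the deubiquitinases, Uchl1, an abundant protein of neurons, had signals of 5309, 7685, 5120.1 and 5812, a mean of 5981 ± 1173 (SD, n = 4), highest at 2 h, where it was 1.45 times the 1 h value. Uchl5 and Usp14, which trim chains at the proteasome, had 431, 310.3, 223 and 315 for Uchl5 and 642, 668, 436 and 515 for Usp14. Both were lowest at 4 h. Usp9x, a large enzyme with roles in neurite growth, had 2636, 1686, 2655 and 2252, lowest at 2 h, and Usp5, which takes apart free ubiquitin chains, 1112, 1962, 1326 and 1087, highest at 2 h.

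The 2 smallest spreads among members over the filter belonged to deubiquitinases. Usp4 had 1019, 1056, 1046 and 1079, a mean of 1049.8 ± 24.6 (SD, n = 4) and a range of 1.06-fold. Usp48 had 618, 641, 599 and 572, a range of 1.12-fold. Usp34, Usp10, Usp7 and Usp8 also stayed within 1.5-fold. Usp7, which protects Mdm2 and other substrates, had 1438, 1222, 1339 and 1578, Usp8, which acts at endosomes, 556, 541, 479.7 and 619.9, and Usp10 708, 725, 861 and 731.

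Usp24 and Usp22 had the widest spreads among deubiquitinases over the filter. Usp24 had 26.9, 375, 142 and 174, the first of these under the floor. With that value set to the floor, the 2 h signal was 10.2 times the 1 h signal, and the 4 h and 6 h signals 3.85 and 4.72 times. These folds depend on the floor: the log2 difference at 2 h was 3.35, but 3.80 with a floor at the pooled 10th percentile and 2.42 at the 30th. Usp22, the histone deubiquitinase of the SAGA complex, had 211, 617, 265 and 251 and was 2.93 times as high at 2 h as at 1 h. Usp1, which acts on DNA repair proteins, had 434, 179, 249.6 and 399, and Usp15 had 305, 150.0, 365 and 289 on its brightest probe set. Those 2 were lowest at 2 h, at 0.413 and 0.492 times the 1 h value. Usp21 had 426, 559, 434 and 239, lowest at 6 h. Usp3, Usp25, Usp33, Usp38 and Usp39, the last a splicing factor without protease activity, ranged over 1.31-fold (Usp33) to 1.71-fold (Usp38).

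A total of 12 members did not reach the filter, and 8 of these lay under the floor on at least 1 array. Usp17la, a cytokine-induced enzyme of blood cells, had 5.5, 4.8, 10 and 9.8, under the floor throughout. Its relative Usp17lc had 7.4, 31.7, 31 and 70.7, Usp12 50, 8.8, 18.2 and 18.7 and Ube2t, an E2 of the Fanconi anaemia pathway, 21.4, 34.7, 29.8 and 73.6. Each of these 3 was under the floor on 3 arrays. The ISG15 genes Usp18 and Ube2l6 were dim as well, Usp18 with 56.8, 52.6, 63.6 and 25.5, and Usp29, a gene of the imprinted Peg3 region, had 83.6, 52.8, 57.2 and 40.7. The remaining ones were Ube2w, Rnf114, Rnf123, Usp42 and Uba1y. The counts over 77 members leave these 12 out.

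At 2 h, 7 members stood at 2-fold or more over 1 h and 3 at 2-fold or more under it, with 67 in between. The 7 were Rnf112, Usp24, Ube2f, Rnf167, Usp22, Ube2c and Uba7, and the 3 were Ube2e1, Usp1 and Usp15. The backgrounds over all tested probe sets were 6.92% higher and 3.29% lower, or 10.2% either way, and the members' 9.09%, 3.9% and 13% lie near them. The median log2 difference was -0.04 over the members and -0.003 over all tested probe sets. With each array centred on its median or quantile normalized, Uba7 fell just short of 2-fold. The count was 9 with quantile normalization but stayed at 10 with centring, where another member passed 2-fold in place of Uba7. On the mean of both its probe sets, the log2 difference of Usp15 was -0.31, and with a filter at the pooled 60th percentile 4 of the 10 were left. The next lowest member over the filter at 2 h was Rnf13, an endosomal ligase, with 1698, 903, 1138 and 1132, at 0.532 times the 1 h value.

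The 2 h array alone lay at least 2-fold above each other array for 4 members, Rnf112, Usp24, Rnf167 and Usp22, or 5.19%, against a background of 2.06% of tested probe sets. It lay as far below each other array for 0 members, against 1.06%. The 1 h array lay at least 2-fold below each other array for 3 members, Usp24, Ube2f and Rnf112, or 3.9%, against 1.45%. Rnf112 and Usp24 passed the filter only with their high 2 h signal counted in the mean. The filter thus favours such members in these counts and in those against 1 h. It was applied to the background in the same way. Unlike the members, the background also holds probe sets that are not the brightest of their gene. Differences in log2 signal between arrays spread most where the 2 h array took part. Their SD across the 77 members was 0.84 when 2 h was set against 1 h, 0.60 when 4 h and 0.63 when 6 h was set against 2 h. Without the 2 h array the pairs gave 0.48 (4 h minus 1 h), 0.57 (6 h minus 1 h) and 0.40 (6 h minus 4 h). Over all 7237 tested probe sets the SDs in the same order were 0.66, 0.62 and 0.65 with 2 h. Without 2 h they were 0.54, 0.54 and 0.55, so the wider spread is not particular to the members. The largest member differences at 2 h against 1 h were those of Rnf112 (3.79) and Usp24 (3.35), both dim at 1 h. For 7 of the 10 members with the highest mean signals the lowest value was that at 2 h, and for Rnf10 and Uchl1 the highest was. No share was taken over other probe sets of like signal, so this count has no matching background. Over all 77, the 2 h value was highest for 26 (33.8%) and lowest for 25 (32.5%), near the 29.2% and 32.0% of all tested probe sets. The part of the 3' weighting and of the marker lists, whose values differed on this array too, was not tested.

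Promoters were looked up for the members, since a shared base composition is a property that the naming rule did not use. RefSeq sequences (GRCm38.p6) matched 65 of the 89 genes, and the 250 bases before each gene's start were read. Their median GC content was 62.8%, against 55.2% over 17491 protein-coding genes and 52% over all 27025 genes with a promoter. The GC box GGGCGG, searched on both strands, was found in 41 members or 63.1%, against 42.7% of protein-coding and 32.9% of all promoters. The TATA box TATAAA was found in 6 or 9.23%, against 12.4% and 13.0%, the E-box CACGTG in 3 or 4.62%, against 6.64% and 6.05%, and the cyclic AMP response element TGACGTCA in 2 or 3.08%, against 2.01% and 1.62%. These shares describe letters in a window and were not tested. The backgrounds cover RefSeq promoters at large, also of genes without a probe set on this array, whereas every member has one. Of the 4 members at least 2-fold above each other array at 2 h (Rnf112, Usp24, Rnf167, Usp22), the promoters of Rnf167 at chr11:70646985-70647234 (+ strand) and of Usp24 at chr4:106315963-106316212 (+ strand) are shown as their sequence context. They run 5′ to 3′ on the gene's strand, and capitals mark GC boxes on either strand, 2 in each, which overlap no other motif searched.
Rnf167: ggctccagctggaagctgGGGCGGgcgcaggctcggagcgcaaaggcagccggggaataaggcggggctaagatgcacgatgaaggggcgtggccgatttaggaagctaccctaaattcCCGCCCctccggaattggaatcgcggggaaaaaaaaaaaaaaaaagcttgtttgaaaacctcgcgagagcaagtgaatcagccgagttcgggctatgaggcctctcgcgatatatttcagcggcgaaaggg
Usp24: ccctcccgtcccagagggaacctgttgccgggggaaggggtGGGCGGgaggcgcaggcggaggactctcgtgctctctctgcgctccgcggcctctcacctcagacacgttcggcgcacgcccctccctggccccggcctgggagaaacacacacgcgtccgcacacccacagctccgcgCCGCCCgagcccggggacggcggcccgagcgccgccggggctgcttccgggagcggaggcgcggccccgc

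**Figure D3:**
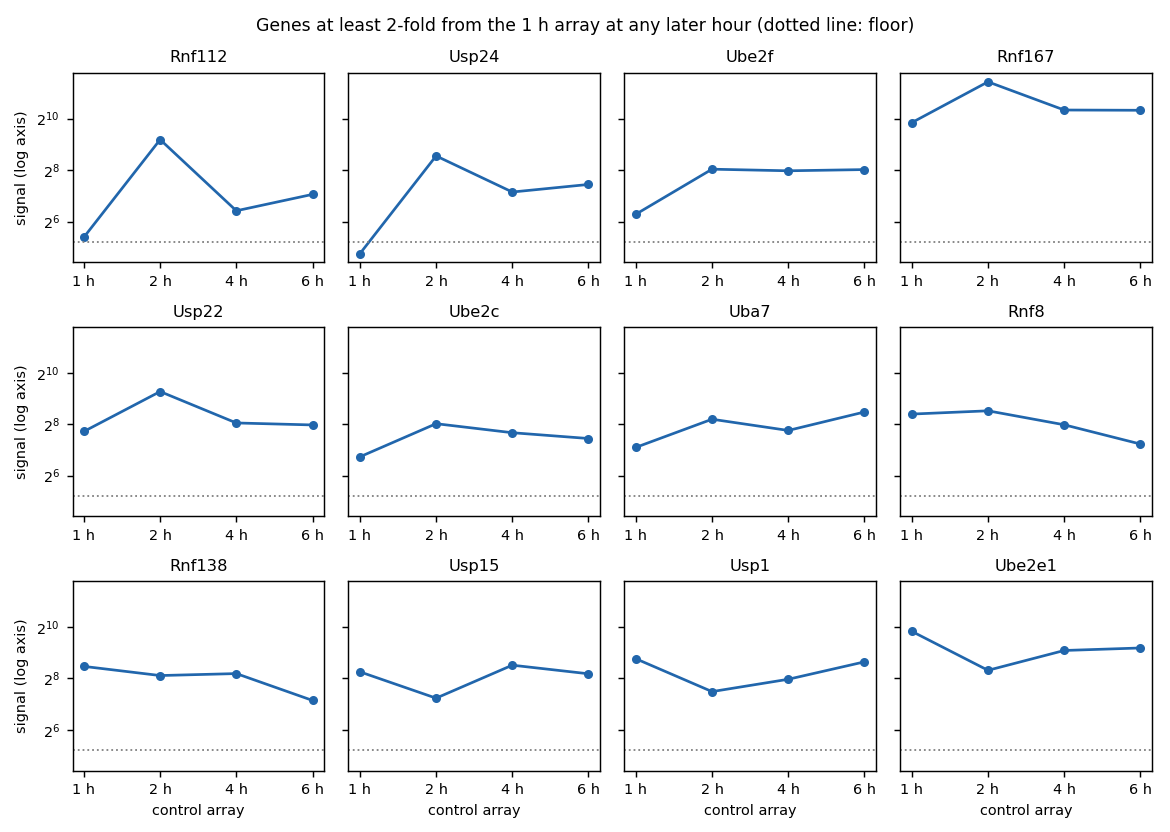
Signal on a log axis at 1, 2, 4 and 6 h for the 12 members that reached a 2-fold difference from 1 h at any later hour, ordered by their 2 h difference; points are single arrays, with no error, and the dotted line is the floor of 36.8. Rnf112, Usp24, Rnf167 and Usp22 peak at 2 h, and Ube2f is low at 1 h only.

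At 4 h against 1 h, 3 members were at least 2-fold higher, Ube2f, Usp24 and Rnf112, and 0 lower, against backgrounds of 3.69% and 2.51%, or 6.20% either way. The difference of Rnf112 fell short of 2-fold with quantile normalization, with centring on the median and with a floor at the pooled 30th percentile, and with the stricter filter 0 were left. Below 2-fold, Ube2c stood at 1.91 times, Rnf6 at 1.6 times and Uba7 at 1.58 times the 1 h value. The lowest ratios at 4 h were those of Uchl5 at 0.517, Usp1 at 0.575, Ube2e1 at 0.597, Rnf145, a sterol-responsive ligase, at 0.639 and Ube2v2 at 0.662 times. The median log2 difference was 0.01 over the members and 0.02 over all tested probe sets.

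At 6 h against 1 h, 4 members passed 2-fold upward, Usp24, Ube2f, Rnf112 and Uba7, and 2 downward, Rnf138 and Rnf8. The backgrounds were 3.74% and 2.79%, or 6.54% either way. Rnf112 fell short of 2-fold with the floor at the 30th percentile, and with the stricter filter 0 were left. Close below the threshold stood Rnft1 at 1.98 times and Ube2c at 1.64 times, and the next lowest was Usp21 at 0.561 times. The median log2 difference was 0.01 over the members and 0.02 over all. These comparisons share the 1 h array, so a low 1 h signal, as for Ube2f, Usp24 and Rnf112, recurs in all 3.

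The remaining 65 members over the filter stayed within 2-fold of the 1 h array at each hour. They had ranges of 1.06-fold to 3.26-fold over the 4 arrays, the widest being that of Ube2z.

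No member passed a test for a straight trend over the hours. By limma, 0 of 77 members and 0 of 7237 probe sets had a slope with an adjusted p under 0.05, a background of 0%, and the smallest adjusted p among the members was 0.9996. At an unadjusted p under 0.05 there were 2 members, Rnf8 and Rnf138, against 2.71% of all tested probe sets. The slope of Rnf8 was -0.25 ± 0.09 on the log2 scale per hour (SE, limma, unadjusted p = 0.0245) and that of Rnf138 -0.23 ± 0.10 (SE, limma, unadjusted p = 0.0444), followed by Ube2z with -0.21 ± 0.11. The steepest upward slopes were 0.26 ± 0.15 for Ube2f, 0.23 ± 0.25 for Usp24 and 0.20 ± 0.11 for Uba7, with SEs. Without the 6 h array the slopes of Rnf8 and Rnf138 were -0.16 and -0.07, and without the 1 h array that of Uba7 was 0.07. The sign turned for Ube2z without the 6 h array (0.02) and for Usp24 (-0.28) and Ube2f (-0.00387) without the 1 h array. A line cannot judge a peak at 2 h alone.

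Of the 89 genes, 62 had 1 probe set, 23 had 2 and 4 had 3, which allowed the probe sets of 27 genes to be set side by side. Probe sets of the same gene differed widely in signal: the brightest was 1.09 to 45.7 times as bright as the next, with a median of 5.87 times. In 12 of the 27 genes the next probe set also passed the filter. At 2 h against 1 h, the differences on the 2 probe sets lay within 2-fold of each other in 9 of these 12 genes, and in 11 of 12 at 4 h and at 6 h. Over 864 genes with such a pair, the shares were 76.7%, 87.3% and 88.1%. The 2 probe sets lay on the same side of their 1 h value in 6, 3 and 6 of the 12 genes at 2, 4 and 6 h, against 54.5%, 49.9% and 50.1% of the 864. No gene of the 12 was at least 2-fold from 1 h the same way on both at any of the hours.

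**Figure D4:**
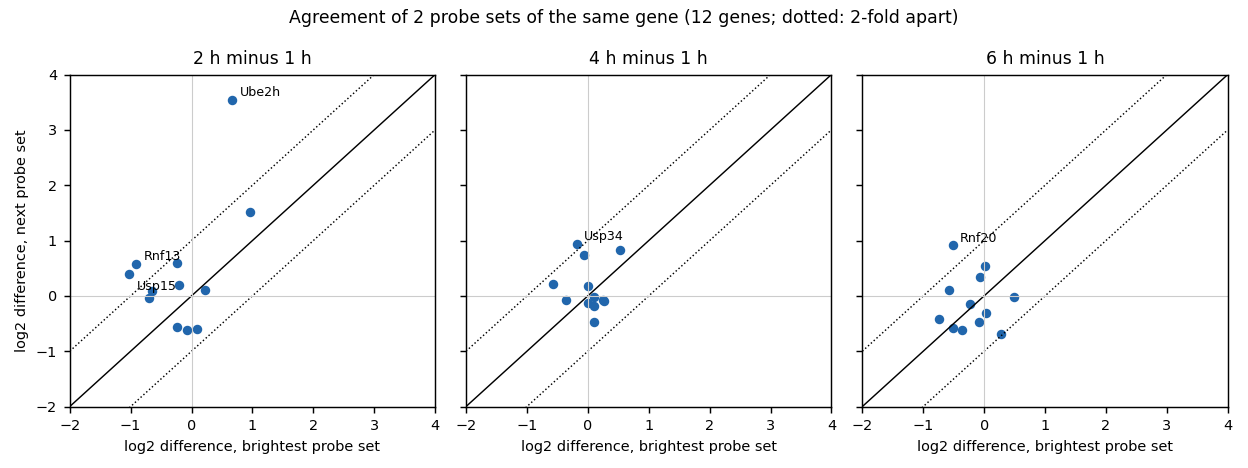
Log2 difference from the 1 h array on the next probe set (vertical axis) against that on the brightest probe set (horizontal axis) for 12 genes at 2, 4 and 6 h; the solid line marks equality and the dotted lines a 2-fold gap. Outside the dotted lines lie Ube2h, Rnf13 and Usp15 at 2 h, Usp34 at 4 h and Rnf20 at 6 h.

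Ube2h, the E2 of the CTLH ligase complex in human cells, had the widest disagreement. Its brightest probe set gave 614, 975, 888 and 858 and the next 75.5, 881, 134 and 74.4. The first was lowest at 1 h and 1.59 times as high at 2 h, while the second was 11.7 times as high at 2 h and near its 1 h value at 6 h. Rnf13 gave 1698, 903, 1138 and 1132 and 729, 1093, 844 and 780.3, and Usp15 gave 305, 150.0, 365 and 289 and 216, 285, 202 and 272. On both genes the brightest probe set was lowest at 2 h and the next highest at 2 h. At 4 h against 1 h the 2 log2 differences of Usp34 were -0.18 and 0.95, and at 6 h against 1 h those of Rnf20 were -0.52 and 0.91.

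Ube2z was the gene whose probe sets followed each other over a wide range. They gave 619.9, 1212, 739 and 372 and 135, 387, 129 and 102, both highest at 2 h and lowest at 6 h, at 1.95 and 2.86 times the 1 h value at 2 h. Usp19, which is anchored in the endoplasmic reticulum, gave 607, 1022, 572 and 560.4 and, on a probe set just too dim to test, 60.2, 290.5, 84.9 and 113. Both were highest at 2 h. Usp7 differed, with the even signals given above on the brightest and 33.4, 218, 142 and 44 on a dim second probe set, highest at 2 h.

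Further pairs came from Ube2k, with 965, 820.0, 753 and 674 and 533, 362, 507 and 356, and Ube2o, with 1527, 1634, 1640.0 and 1181 and 1629, 1074, 1441 and 1061. The 2 probe sets of Ube2k were both highest at 1 h and both of Ube2o lowest at 6 h, but at 2 h those of Ube2o had log2 differences of 0.10 and -0.60 from 1 h. Usp9x gave 2636, 1686, 2655 and 2252 and a dimmer 304, 321, 277 and 274, the second within 1.17-fold. Those of Rnf14 also lay on opposite sides of 1 h at 2 h, with 10064, 8530.5, 10081 and 10333 on the brightest and 760.3, 1143, 863 and 613 on the next. Ube2d2a had 266, 259.7, 193 and 191 and Ube2d3 993, 650.1, 985 and 612 on the next probe set, each with a name that marks probes shared between transcripts. No hour was highest on both probe sets of either gene.

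In the other 15 genes the next probe set was too dim to test. A further probe set, also dim, was found for Rnf2, Rnf20, Ube2o and Usp3. Over all 31 probe sets that were not the brightest of their gene, of which 19 did not pass the filter, 6 or 19.4% were at least 2-fold higher at 2 h than at 1 h and 0 lower. Over the 2582 such probe sets of all genes with several, 12.8% were higher and 5.07% lower. These 6 belonged to Ube2h, Usp7, Rnf2, Usp19, Ube2z and Ube2o. On the brightest probe sets of the same 27 genes, 0 were at least 2-fold higher at 2 h and 1, Usp15, lower, against 6.80% and 4.15% of the brightest probe sets of all 2073 genes with several. Rnf2 had 11, 178, 66.6 and 108 on its next probe set against 448, 639.7, 519.9 and 481 on its brightest, and the dimmest of Ube2o gave 9.9, 80.7, 20.1 and 24.9. Rnf138 agreed in its low 6 h signal, with 129.9, 70.6, 84.6 and 42.3 on its dimmer probe set. Others differed from the brightest. The next probe set of Rnf220 gave 70.6, 39.2, 62 and 36.4, lower at 2 h than at 1 h. That of Usp3 gave 179, 232, 69.8 and 63, lowest at 6 h. That of Rnf4 gave 42.5, 74.7, 76.6 and 66, lowest at 1 h, and that of Usp14 53.8, 71.1, 18.7 and 161, highest at 6 h. On its next probe set Usp38 gave 95.3, 144, 71.7 and 88.2, highest at 2 h, where its brightest was lowest. The next of Ube2v2 gave 19.4, 9.6, 82.3 and 18.2, over the floor at 4 h only, where its brightest was lowest. Those of Rnf103, Rnf227 and Usp39 lay under the floor at 1 h and 2 h. Usp4, the most even member, gave 10.4, 3.7, 15.5 and 134 on a second probe set, under the floor at 1, 2 and 4 h.

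**Figure D5:**
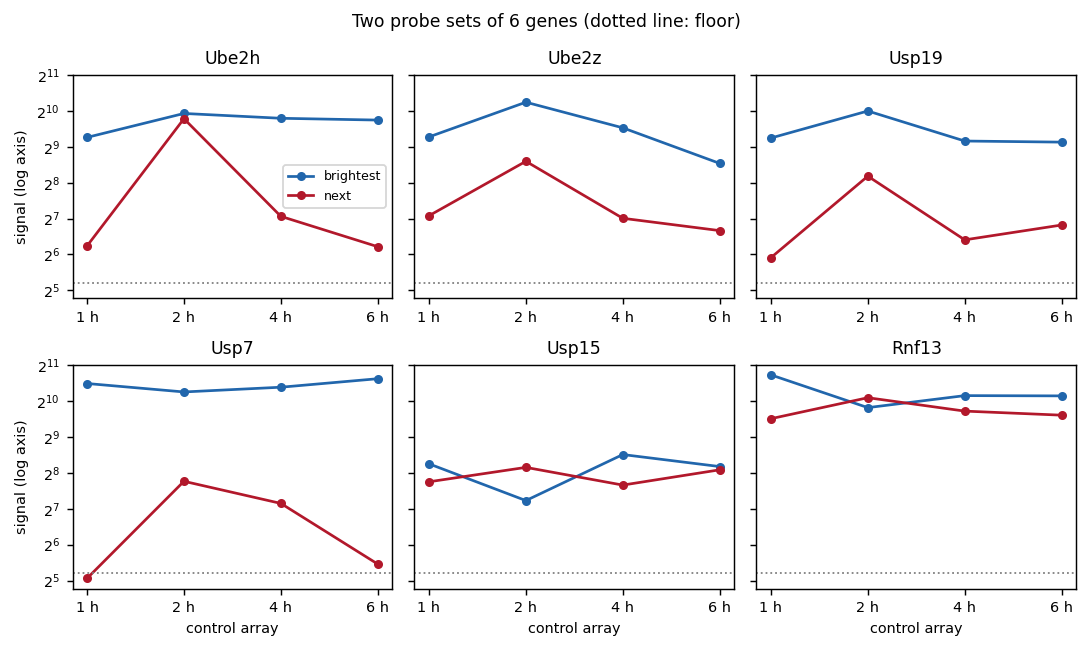
Signal on a log axis at 1, 2, 4 and 6 h on the brightest (blue) and the next (red) probe set of 6 genes; points are single arrays and the dotted line is the floor of 36.8. The curves of Ube2z and Usp19 peak together at 2 h, those of Usp15 and Rnf13 cross, those of Ube2h differ in the size of the 2 h peak, and of Usp7 the second alone peaks at 2 h.

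Other genes of the pathway are given for comparison. Of 90 listed genes for ubiquitin-like proteins, cullin ligases, further ligases, deubiquitinases and shuttle factors, 54 have a probe set and 44 passed the filter, with a median SD of 0.23, against 0.28 over all tested probe sets. At 2 h against 1 h, 1 was at least 2-fold higher, the ligase Ubr4 with 1558, 3123, 1637 and 2016, and 1 lower, Uimc1, which reads ubiquitin chains at DNA breaks, with 335, 143, 315 and 153, where the backgrounds were 6.92% and 3.29%. Uimc1 was also the 1 gene at least 2-fold lower at 6 h, and 0 passed that fold at 4 h. The brightest were Sumo3, a ubiquitin-like modifier, with 4414, 5143, 4076 and 4844, and Vcp, which extracts ubiquitylated proteins, with 3751, 3151, 4001 and 3669. Both stayed within 1.5-fold. Among the 44 genes over the filter, the widest spread after that of Uimc1 was that of the signalling ligase Traf2, with 382, 393, 535 and 194, lowest at 6 h.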

How the data were processed

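The authors deposited 1 linear intensity for each probe set and array, and no source used here names the software behind it. Array means trimmed by 2% per end were 500.3 and differed by at most 0.00616%, so the deposited intensities appear scaled to one mean and were not normalized again. No detection calls were used here. Of 12488 probe sets, 66 manufacturer controls were left out of tests. Log2 was taken after a floor, and a filter was set on the mean log2 over the arrays, as given in the report. Symbols came from the platform annotation; all 120 member probe sets kept their symbol when updated through gene identifiers. A further 4 probe sets that carry a symbol of the rule beside other symbols were left out. The choice of brightest probe set was the same without the floor for all 89 genes. Of the chosen probe sets over the filter, 9 have name endings that mark shared or incomplete probes. They are those of Rnf11, Rnf227, Rnf20, Usp34, Usp3, Usp25, Ube2k, Ube2e1 and Ube2c.

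Trends were tested with limma 3.58.1 in R 4.3.3 as a linear slope per hour on log2 signals of the 4 arrays. The test had a mean-dependent variance prior, was two-sided and used Benjamini-Hochberg adjustment over 7237 probe sets. The code was checked on simulated data with SDs shuffled over the probe sets, which removes their dependence on signal. No result here rests on that check. Differences between 2 hours rest on 1 array each and have no test. The number of arrays limits precision. Tables and figures were made with Python 3.11.15, pandas 2.3.3 and matplotlib 3.10.9.

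The members, lists, tests and naming rule were chosen with earlier results of these data known. Genes named were those with several probe sets, the 10 highest and 5 lowest means, the 8 largest and 5 smallest SDs, the 5 largest differences each way per hour with both values above the floor, the 3 steepest slopes each way, those with 1 far array and a fixed set. Some genes of the fixed set are not reported here. Further names were chosen after their values were seen. Alternatives covered normalization, floor, filter, probe set choice, fold threshold, variance prior, time scale and leaving out each array.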

Additional observations from a re-analysis of the deposited data

Results flagged for a closer look

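With the 4 control arrays taken as 1 group, the highest or lowest array lay farther from the nearest other array than Dixon's 95% critical value for 4 values in 7 of 77 members, or 9.09%, against 6.44% of all 7237 tested probe sets. Chance alone marks about 1 in 20 groups, and the arrays are of different hours. The far array was the lowest at 2 h for Rnf14, with 8530.5 against 10064 to 10333 on the others, and for Rnf4, with 1860.4 against 2328 to 2390.3. It was the highest at 2 h for Usp19, with 1022 against 560.4 to 607. At 1 h it was the highest for Rnf19a, with 672 against 512 to 534, and the lowest for Ube2f, with 77.9 against 251 to 262. At 4 h it was the highest for Usp10, with 861 against 708 to 731, and at 6 h the lowest for Ube2e3, with 102 against 133 to 134. The Dixon test, run on log2 signals, divides the gap by the range of the 4 values. Small gaps therefore stand out where the other 3 arrays lie close together, as for Ube2e3.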

How the results depend on the processing

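The count of members with a trend by limma stayed at 0 under each of 13 alternatives, leaving out any 1 array included, while members with an unadjusted p under 0.05 ranged between 0 and 9. Without the 2 h array, limma called 32 of all 7237 probe sets, none of them a member. In that fit the variance of a probe set came wholly from the prior and not from its own arrays, which limits these calls. The counts at least 2-fold from 1 h (10 at 2 h, 3 at 4 h and 6 at 6 h) became 4, 0 and 0 with a filter at the pooled 60th percentile, which leaves 61 members, and 25, 11 and 15 at a 1.5-fold threshold, and were within 1.5 times under the other alternatives. The median SD of log2 signal over the arrays (0.29) was 0.25 with the stricter filter and ranged between 0.21 and 0.29 when each array was left out, lowest without the 2 h array. Within a 2-fold range lay 62 members, or 63 to 71 with 1 array left out, an alternative added after seeing the data. Leaving out an array cannot widen a range, so this count could only stay or rise. The 9 of 12 genes whose 2 probe sets lay within 2-fold at 2 h became 18 of 27 without the filter and 5 of 12 with a 1.5-fold window. Of 19 single differences of at least 2-fold, none turned under the normalizations, floors, probe set averaging or updated symbols, and 7 of their values fell short of 2-fold: Uba7 at 2 h in 2, Usp15 at 2 h in 1, Rnf112 at 4 h in 3 and Rnf112 at 6 h in 1. With each array left out, the slope per hour lay between -0.426 and 0.0213 for Ube2z (the second without 6 h), between -0.28 and 0.46 for Usp24 and between -0.00387 and 0.48 for Ube2f (the negative values without 1 h). The cause was not tested. No paired analysis was possible because each hour has 1 sample. Dim probe sets near the floor limit what can be seen.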
